A study of Homo sapiens with 6 samples.

Results

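The genes described here are the subunits of the oxidative phosphorylation system, the respiratory complexes I to IV, cytochrome c and ATP synthase. Members were chosen by gene symbol alone, from the symbol families of the mitochondrially encoded subunits and of the nuclear NDUF, SDH, UQCR, COX and ATP5 subunits with CYC1 and CYCS, and 95 of the 34811 genes in the count table matched. Of these, 12 are encoded by mitochondrial DNA, 82 are nuclear, and 1 is a pseudogene that carries the symbol of a mitochondrial gene. The filter on low counts left 91 members, among 17309 tested genes.

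RNA-seq compared cells of the human ovarian carcinoma line OVCAR-3 that stably carry an shRNA against COX-1 (OV3/COX1KD) with OVCAR-3 cells that carry a scrambled shRNA on the same pRS plasmid (OV3/SCR). Both lines were selected with puromycin and grown in RPMI-1640 with serum, and each contributed 3 libraries from separate passages. Each condition was represented by 1 clone, clone #1 of OV3/SCR and clone #2 of OV3/COX1KD. P-values therefore measure the spread between passages, and an effect of the shRNA and a difference between clones cannot be told apart. COX-1 in these names is the prostaglandin enzyme encoded by PTGS1 and is unrelated to the subunits of cytochrome c oxidase, whose gene symbols also begin with COX and whose mitochondrial subunit gene is MT-CO1.

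The respiratory chain passes electrons from NADH (complex I) and succinate (complex II) through complex III and cytochrome c to oxygen at complex IV, and the proton gradient so built drives ATP synthase. Complex II is built from nuclear subunits alone, whereas complexes I, III, IV and ATP synthase join nuclear subunits to a core made inside the mitochondrion. Mitochondrial genes are transcribed by a dedicated polymerase as long RNAs that are then cut into rRNAs, tRNAs and mRNAs, while each nuclear subunit gene has a promoter of its own.

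The sequences of one mitochondrial gene and its nuclear copy are shown first because the count table names them misleadingly. The row with the symbol MT-ATP8 (ENSG00000229604) is the processed pseudogene MTATP8P2 at chr2:88124461-88124662 of GRCh37. The functional gene, which encodes a small subunit of ATP synthase, is ENSG00000228253 and stood in the table under a clone name. In the GRCh37 annotation it spans bases 8366 to 8572 of the mitochondrial genome, and its last 46 bases (22.2% of its 207) also open MT-ATP6. These shared bases are in capitals in the first sequence, and in the second, of the 202-base pseudogene, capitals mark the 12 bases that differ from MT-ATP8 (94.1% identity over 202 aligned bases).

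MT-ATP8: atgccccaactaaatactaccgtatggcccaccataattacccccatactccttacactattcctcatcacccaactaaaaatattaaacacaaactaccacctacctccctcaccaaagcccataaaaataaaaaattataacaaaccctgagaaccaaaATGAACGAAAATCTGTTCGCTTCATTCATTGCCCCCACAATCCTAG
MTATP8P2: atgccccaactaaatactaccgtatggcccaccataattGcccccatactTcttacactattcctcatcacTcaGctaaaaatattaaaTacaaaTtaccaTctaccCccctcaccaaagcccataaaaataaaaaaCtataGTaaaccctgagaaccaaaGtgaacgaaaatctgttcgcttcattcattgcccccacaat

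Counts of the pseudogene row were 4, 7 and 3 in OV3/SCR and 2, 3 and 1 in OV3/COX1KD, and it was not tested. The functional gene had 36515, 46214 and 40886 counts in OV3/SCR and 35448, 40408 and 35713 in OV3/COX1KD. The 2 groups of the functional gene overlapped, with a log2 fold change of -0.12 (SE 0.067, edgeR FDR = 0.15). MT-ND4L and MT-ND4 also overlap, and their 7 shared bases are the capitals at the 3′ end of MT-ND4L, while MT-ATP6 and MT-CO3 share 1 base. A read across such an overlap could count for either gene or for neither.

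MT-ND4L, last 30 bases: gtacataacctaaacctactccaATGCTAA

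Differences between the lines were small and ran in opposite directions for the mitochondrially and the nuclearly encoded subunits. Levels are given as TMM-normalized CPM (counts made comparable between libraries by total count and edgeR's TMM factors), and a gene is said to have risen or fallen where edgeR's quasi-likelihood test gave an FDR under 0.01. By that test 59 members rose in OV3/COX1KD cells, 11 fell and 21 did not pass. Among all tested genes 25.8% rose and 22.1% fell, and among the 6178 abundant tested genes, those whose mean log2 CPM was 5 or more and among which most members lie, 40.3% rose and 26.9% fell. Of the 12 mitochondrially encoded members 10 fell and 0 rose, with a median log2 fold change of -0.27 (fold 0.831). Of the 79 nuclear members tested 59 rose and 1 fell, with a median of 0.22 (fold 1.16). The median over all tested genes was -0.0087, and over the abundant genes 0.057. A log2 fold change beyond 0.5 was reached by 2 members, UQCRB and ATP5G2, both higher, against 9.87% of all tested genes above 0.5 and 10.0% below -0.5 (8.71% and 4.92% of the abundant genes). In bulk RNA a smaller share of cells with a given RNA and less of that RNA per cell cannot be told apart.

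Counts of the mitochondrial and nuclear subunits were next set against each other within each library. Their ratio does not depend on scaling, whereas shares of all counts depend on the library total. The 13 mitochondrial protein genes (MT-ATP8 under its true identity included) took 6.97%, 7.91% and 7.77% of all OV3/SCR counts and 6.06%, 6.84% and 5.66% of all OV3/COX1KD counts. The 82 nuclear members took 1.12%, 1.09% and 1.11% in OV3/SCR and 1.23%, 1.25% and 1.24% in OV3/COX1KD. Neither share overlapped between the lines. The ratio of mitochondrial to nuclear counts was 6.21, 7.27 and 7.02 in OV3/SCR (6.83 ± 0.554, SD, n = 3) and 4.94, 5.49 and 4.58 in OV3/COX1KD (5.004 ± 0.459, SD, n = 3). Each OV3/COX1KD library had a lower ratio than each OV3/SCR library, and the smallest two-sided p that an exact permutation test of 3 against 3 libraries allows is 0.1. No test of the ratio was run.

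**Figure D1:**
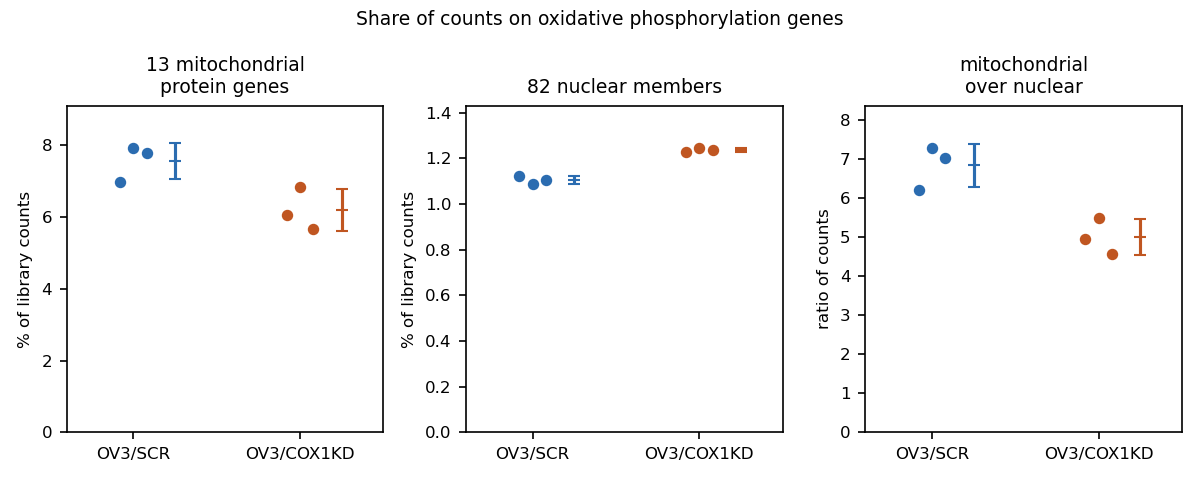
Share of each library's counts on the 13 mitochondrial protein genes (left, percent) and on the 82 nuclear members (middle, percent), and the ratio between them (right). Points are the 3 libraries of each line and the bars beside them the mean ± SD. The mitochondrial share and the ratio are lower in all 3 OV3/COX1KD libraries, and the nuclear share is higher.

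All 7 mitochondrial subunits of complex I fell, beside 22.1% of all tested genes and 26.9% of the abundant ones, with a median log2 fold change of -0.28. MT-ND5, one of the proton-pumping subunits of the membrane arm, stood at 4241, 4824 and 4542 CPM in OV3/SCR and at 3376, 3659 and 3281 in OV3/COX1KD. The groups did not overlap, and the log2 fold change was -0.40 (SE 0.041, edgeR FDR = 7.5e-08), the largest fall among the mitochondrial members. MT-ND6, the sole protein gene on the light strand, stood at 1004, 1099 and 1102 CPM in OV3/SCR and at 798, 890.4 and 804 in OV3/COX1KD, a log2 fold change of -0.36 (SE 0.041, edgeR FDR = 2.3e-07). Its groups did not overlap either, though the library kit does not mark strand, and reads of MT-ND6 cannot be told apart from antisense reads of the opposite strand's long transcript. MT-ND3 stood at 1788, 2015 and 1962 CPM against 1541, 1721 and 1480.2, again without overlap (log2 fold change -0.28, SE 0.046, edgeR FDR = 2.9e-05).

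The other 4 MT-ND genes, all membrane-arm subunits, fell with overlapping groups. MT-ND1 had the widest spread of the mitochondrial members, from 3142 to 4214 CPM in OV3/SCR and from 2496 to 3582 in OV3/COX1KD, with a log2 fold change of -0.34 (SE 0.095, edgeR FDR = 0.0047). Log2 fold changes were -0.27 for MT-ND2 and MT-ND4L and -0.24 for MT-ND4, with edgeR FDRs between 0.00039 and 0.0022. In these 4 genes the highest OV3/COX1KD library lay above the lowest OV3/SCR library. All 4 lost their call with DESeq2, and MT-ND1, MT-ND4 and MT-ND4L lost it in several fits that left out a library as well. The highest FDR of MT-ND1 over all settings, edgeR and DESeq2 included, was 0.13.

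MT-CYB, the mitochondrial subunit of complex III, ranged from 5273 to 7002 CPM in OV3/SCR and from 4550.3 to 6053 in OV3/COX1KD. Its log2 fold change of -0.26 (SE 0.083) lay just past the threshold (edgeR FDR = 0.0099), and the groups overlapped.

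The 3 catalytic subunits of cytochrome c oxidase made by mitochondria differed less than the MT-ND genes, with a median log2 fold change of -0.15. MT-CO3 stood at 8334, 8818 and 8891 CPM in OV3/SCR and at 7853, 8305 and 7379.6 in OV3/COX1KD, a fall without overlap (log2 fold change -0.15, SE 0.035, edgeR FDR = 0.0016). MT-CO2 fell by a similar amount (log2 fold change -0.15, SE 0.039, edgeR FDR = 0.0023), although its highest OV3/COX1KD library, 6498 CPM, lay above its lowest OV3/SCR library, 6474. MT-CO3 lost its call without OV3/SCR replicate 2, OV3/SCR replicate 3 or OV3/COX1KD replicate 3. MT-CO2 lost its call in those fits and also without OV3/COX1KD replicate 1. MT-CO1, which holds the oxygen-reducing centre, ranged from 10926 to 11909 CPM and from 9944 to 11335, and did not pass (log2 fold change -0.11, SE 0.039, edgeR FDR = 0.016). It did pass in 7 of the 13 alternative settings, among them total count scaling, nuclear genes only in the scaling, the replicate block and the fits without OV3/SCR replicate 1 or OV3/COX1KD replicate 2. MT-ATP6, the proton channel subunit of ATP synthase, did not pass either (log2 fold change -0.12, SE 0.056, edgeR FDR = 0.067), with groups of 5053 to 5729 and 4617 to 5687 CPM, but passed in 3 settings (total count scaling, no filter and without OV3/COX1KD replicate 2).

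The mitochondrial member with the largest fall was set against the one with the smallest difference, a pair chosen after their values were seen and given as a description only. The count of MT-ND5 over that of MT-CO1 was 0.388, 0.405 and 0.387 in OV3/SCR and 0.316, 0.323 and 0.330 in OV3/COX1KD. This ratio did not overlap between the lines (0.393 ± 0.0102 against 0.323 ± 0.00693, SD, n = 3 each). The summed MT-CO count over the summed MT-ND count overlapped, at 0.772 to 0.862 in OV3/SCR and 0.857 to 0.933 in OV3/COX1KD.

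The other RNAs of the mitochondrial genome gave values on the same side of 0. The rRNAs did not pass, with log2 fold changes of -0.13 for MT-RNR1 (edgeR FDR = 0.12) and -0.06 for MT-RNR2 (edgeR FDR = 0.088). Of the 22 mitochondrial tRNA genes 18 were tested. By the edgeR test 9 fell and 0 rose, beside 22.1% of all tested genes that fell, and the median log2 fold change was -0.49. Many of these genes held few counts. MT-TM, with the largest fall (-1.22), had 32, 42 and 29 counts in OV3/SCR and 11, 21 and 11 in OV3/COX1KD. MT-TS1, with the most counts (5923 to 7137 over the 6 libraries), did not pass (-0.12, edgeR FDR = 0.028). Strand is not marked for these genes either. In 39 nuclear pseudogene copies of mitochondrial protein genes, 7 were tested and 3 fell, MTND5P11 (-0.56), MTND6P4 (-0.40) and MTND4P12 (-0.24). These copies share sequence with MT-ND5, MT-ND6 and MT-ND4, and how reads that match both were counted is not given in the sources used here, so their counts are uncertain.

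**Figure D2:**
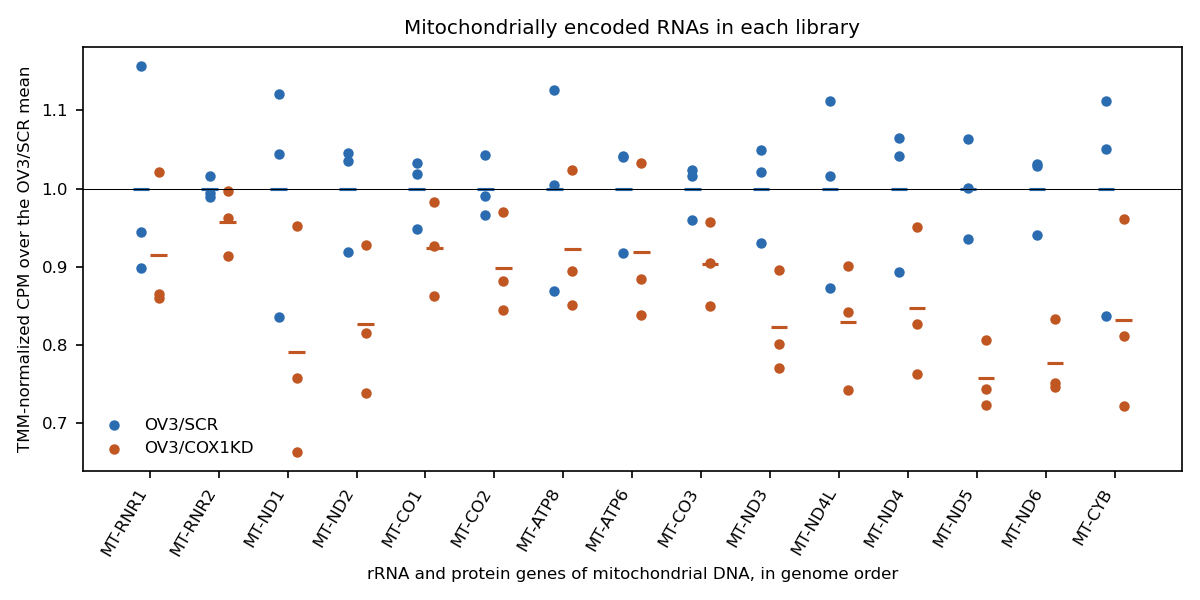
TMM-normalized CPM of the 2 rRNA and 13 protein genes of mitochondrial DNA in each library, divided by the OV3/SCR mean of the gene (vertical axis) and ordered along the genome. Points are libraries and short lines group means. The OV3/COX1KD mean is lowest relative to OV3/SCR for MT-ND5 (0.758) and MT-ND6 (0.777) and closest to 1 for MT-RNR2 (0.958).

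Single libraries moved together across the mitochondrial genes. OV3/SCR replicate 1 was the lowest of its line in 12 of 12 mitochondrial members, OV3/COX1KD replicate 2 the highest of its line in 12 and OV3/COX1KD replicate 3 the lowest in 11. OV3/COX1KD replicate 2 lay above OV3/SCR replicate 1 in 8 of the 12. The median coefficient of variation was 6.74% in OV3/SCR and 8.77% in OV3/COX1KD for these genes, against 2.39% and 2.03% for the nuclear members. The number of mitochondrial members that fell was 4 without OV3/SCR replicate 2, OV3/SCR replicate 3 or OV3/COX1KD replicate 3, 7 without OV3/COX1KD replicate 1, 11 without OV3/SCR replicate 1 and 12 without OV3/COX1KD replicate 2, and DESeq2 called 5. MT-ND3, MT-ND5 and MT-ND6 fell in each of these fits and in all other settings tried, and the median of the 12 stayed between -0.34 and -0.18.

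Among the nuclear members rises outnumbered falls in each complex. The counts are to be read against the 25.8% of all tested genes that rose and the 22.1% that fell (40.3% and 26.9% of the abundant ones). For complex I, 28 of 37 tested subunits rose and 0 fell (median log2 fold change 0.24). For complex III 7 of 9 rose (median 0.18), for complex IV 7 of 12 rose and 1 fell (median 0.15), and for ATP synthase 14 of 16 rose (median 0.24). In complex II 2 of 4 rose (median 0.15), and CYCS, which encodes cytochrome c, rose by 0.22 on the log2 scale. Complexes were assigned by symbol, so NDUFA4 is counted with complex I and ATP5S, now named DMAC2L, with ATP synthase. ATP5S shares 57.5% of its exon bases with other genes. Its edgeR FDR was 0.0086, and its highest FDR over all settings, edgeR and DESeq2 included, was 0.060. For 61 of the 79 tested nuclear members each OV3/COX1KD library lay above each OV3/SCR library, and for 3 each lay below. The same holds for 32.5% and 30.7% of all tested genes and for 45.7% and 31.5% of the abundant ones.

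Of complex I, the 7 nuclear core subunits, which carry the flavin and the iron-sulfur clusters, gave 4 rises and 0 falls, NDUFS1 and NDUFS8 among the rises, with a median log2 fold change of 0.13. By the same test 25.8% of all tested genes and 40.3% of the abundant ones rose. The largest rises in complex I were in accessory subunits of the membrane arm. NDUFB11 stood at 36.5, 34.8 and 36.4 CPM in OV3/SCR and at 48.8, 48.8 and 51.8 in OV3/COX1KD (log2 fold change 0.47, SE 0.045, edgeR FDR = 2.2e-08). NDUFB5 stood at 103, 96.9 and 103 CPM against 133, 138 and 138 (log2 fold change 0.43, SE 0.035, edgeR FDR = 1.9e-09). In both genes the lines did not overlap. NDUFC2 had the highest level per coding length of the nuclear complex I genes, 1007 CPM per kb in OV3/SCR, and rose from 359.5 ± 11.4 to 461 ± 3.58 CPM (SD, n = 3 each), a log2 fold change of 0.36 (SE 0.030, edgeR FDR = 3.5e-09). Of its exon bases 22.3% also belong to the readthrough gene NDUFC2-KCTD14 or to THRSP.

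Complex I members that did not pass included NDUFV2 (log2 fold change -0.17, edgeR FDR = 0.058), an iron-sulfur subunit of the NADH-oxidizing end, and NDUFS3 (-0.04, edgeR FDR = 0.32). NDUFA4 and NDUFA4L2 are a pair of related genes whose symbols follow complex I, although the NDUFA4 protein is now known as a subunit of complex IV. NDUFA4 rose from 136 ± 3.23 to 169 ± 2.16 CPM (SD, n = 3 each; log2 fold change 0.31, edgeR FDR = 5.5e-08), whereas NDUFA4L2 stood at 3.78, 3.95 and 4.17 CPM against 3.41, 3.59 and 3.41 and did not pass (edgeR FDR = 0.19).

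In complex II, which is also the succinate dehydrogenase of the TCA cycle, the membrane anchors rose and the catalytic subunits did not pass. SDHC stood at 65.5, 63.4 and 59.8 CPM in OV3/SCR and at 83.3, 80.0 and 83.9 in OV3/COX1KD, with no overlap (log2 fold change 0.39, SE 0.040, edgeR FDR = 7.5e-08). SDHD, which had the highest level per coding length of the 4 genes (137 CPM per kb in OV3/SCR), rose from 65.4 ± 0.817 to 76.9 ± 2.16 CPM (SD, n = 3 each; log2 fold change 0.23, edgeR FDR = 2.0e-05). SDHA, the flavoprotein, and SDHB, the iron-sulfur subunit, had log2 fold changes of 0.04 (edgeR FDR = 0.44) and 0.07 (edgeR FDR = 0.10).

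UQCRB, a small subunit of complex III near the ubiquinone site, showed the largest rise of all members. It stood at 214, 214 and 215 CPM in OV3/SCR and at 319, 336 and 333 in OV3/COX1KD, a log2 fold change of 0.62 (SE 0.030, edgeR FDR = 8.9e-13). CYC1, which encodes cytochrome c1, stood at 299.7, 288 and 297 CPM against 389, 377 and 392 (log2 fold change 0.39, SE 0.029, edgeR FDR = 8.4e-10). Neither gene overlapped between the lines. The core proteins UQCRC1 and UQCRC2 each rose by 0.18 on the log2 scale, while UQCRFS1, the Rieske iron-sulfur protein (0.08), and UQCR11 (0.10) did not pass. CYCS, their electron acceptor, was at 251 ± 2.97 CPM in OV3/SCR and 292 ± 0.977 in OV3/COX1KD (SD, n = 3 each, edgeR FDR = 1.2e-06).

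In complex IV the largest rises were in COX6C, a membrane subunit, and COX5A, a matrix-side subunit. COX6C stood at 176, 171 and 181 CPM in OV3/SCR and at 225, 233 and 231 in OV3/COX1KD, with no overlap (log2 fold change 0.38, SE 0.031, edgeR FDR = 2.6e-09). COX5A had a log2 fold change of 0.36 (SE 0.038, edgeR FDR = 1.1e-07). COX7C had the highest level per coding length of all nuclear members, 1221 CPM per kb in OV3/SCR, and rose with a log2 fold change of 0.22 (SE 0.029, edgeR FDR = 1.5e-06). COX6A1 was the one nuclear member that fell, from 194, 186 and 192 CPM to 179, 173 and 179.7 (log2 fold change -0.10, SE 0.031, edgeR FDR = 0.0073). Its groups did not overlap, but 32.6% of its exon bases are shared with another annotated gene, and it no longer passed in 5 of the 6 fits that left out a library, all but the fit without OV3/SCR replicate 2. The highest FDR over all settings, edgeR and DESeq2 included, was 0.069.

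Complex IV has isoform pairs, of which one form is usually general and the other restricted to a few tissues. COX4I2, the lung and hypoxia form, had 0, 0 and 1 counts in OV3/SCR and 0, 0 and 0 in OV3/COX1KD, and so did not exceed the floor of 3 counts (0.110 to 0.119 CPM), under which a level is not detectable at this depth. COX7A1, the muscle form, had 7, 8 and 15 counts against 3, 6 and 8 and was not tested. COX6B2, a testis form, had a log2 fold change of -0.78 with a standard error of 0.38 (edgeR FDR = 0.089). Their general partners COX4I1 and COX6B1 rose, by 0.15 and 0.14 on the log2 scale, and COX7A2 did not pass (-0.01, edgeR FDR = 0.82). COX7B rose by 0.16, and its relative COX7B2 took 9.39%, 9.32% and 9.54% of the pair's counts in OV3/SCR and 8.40%, 8.91% and 9.85% in OV3/COX1KD, with overlapping groups. COX4I1, COX6B1 and COX7B lost their calls under total count scaling (edgeR FDR = 0.034, 0.082 and 0.025).

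Of the ATP synthase genes, ATP5G1, ATP5G2 and ATP5G3 encode the same mature c subunit, which forms the rotating membrane ring. ATP5G2 stood at 155, 165 and 153 CPM in OV3/SCR and at 238, 253 and 235 in OV3/COX1KD, a log2 fold change of 0.62 (SE 0.036, edgeR FDR = 1.6e-11). ATP5G3 rose from 202 ± 2.91 to 267 ± 1.72 CPM (log2 fold change 0.40, edgeR FDR = 4.4e-10) and ATP5G1 from 105 ± 3.91 to 134 ± 4.09 CPM (log2 fold change 0.35, edgeR FDR = 8.1e-08; SD, n = 3 each). The part of the 3 genes' counts that came from ATP5G2 was 33.1%, 35.4% and 33.2% in OV3/SCR and 37.5%, 38.6% and 37.03% in OV3/COX1KD, without overlap.

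Subunits of the soluble head and its central stalk rose as well, ATP5A1 (alpha) by 0.30, ATP5B (beta) by 0.26 and ATP5C1 (gamma) by 0.16 on the log2 scale. ATP5E (epsilon) had the highest level per coding length of the nuclear ATP synthase genes, 1066 CPM per kb in OV3/SCR, and a log2 fold change of 0.18 (edgeR FDR = 9.6e-05), with 32.7% of its exon bases shared with TUBB1 on the opposite strand. ATP5I (0.10, edgeR FDR = 0.017) and ATP5D (0.10, edgeR FDR = 0.060) did not pass. ATP5C1 and ATP5E lost their call under total count scaling, with edgeR FDRs of 0.033 and 0.011.

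Members that were not tested account for the rest. NDUFA7 (ENSG00000167774) had 1, 1 and 2 counts in each line, and 91.7% of the exon bases of that identifier are shared with other genes, among them CD320 and the current NDUFA7 identifier. It is therefore no measure of NDUFA7, a complex I subunit. Symbols for COX6A2 and COX8C, isoforms of muscle and testis, were not found in the table.

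Per coding length, mitochondrially encoded members stood far above their nuclear partners. Counts cover all exon bases, whereas the length is that of the coding part alone. Levels per kb are therefore raised for genes whose coding part is a small part of their exons. COX7C and ATP5E, for example, have coding parts of 189 and 153 bases. In OV3/SCR the 12 ranged from 2035 CPM per kb (MT-ND6) to 11073 (MT-CO3), with a median of 5913. The 78 tested nuclear members with a coding length ranged from 2.21 (COX6B2) to 1221 (COX7C), with a median of 204. The count of MT-CO1 over that of COX4I1, a nuclear subunit of the same complex, was 33.4, 37.3 and 36.6 in OV3/SCR and 30.1, 31.2 and 27.8 in OV3/COX1KD, without overlap.

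Promoters of nuclear members were searched for the letters of sites bound by NRF1 and by ETS-family factors such as GABPA, which are known regulators of respiratory genes. In RefSeq promoters of GRCh38.p14, 63 of the 79 tested nuclear members were matched, and the 250 bases before each annotated start were read. UQCRB, the member with the largest rise, was not among those matched. The NRF1 letters GCATGCG, on either strand, stood before 14 of the 63 members (22.2%) and before 1135 of all 27305 genes (4.16%). The 27305 are all genes of the promoter set, whether or not they were tested here. In 10 of the 14 both strands matched at one place, in the palindrome CGCATGCG. Windows of 60 bases around it are shown for 4 of these members that span the range of the values, the c subunit gene with the largest rise, a rotor subunit of ATP synthase, a complex II anchor and the one nuclear member that fell, with the palindrome in capitals and each written along the gene's own strand.

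ATP5G2 promoter, chr12:53676091-53676150, minus strand: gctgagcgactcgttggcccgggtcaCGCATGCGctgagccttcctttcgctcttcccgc
ATP5C1 promoter, chr10:7788117-7788176, plus strand: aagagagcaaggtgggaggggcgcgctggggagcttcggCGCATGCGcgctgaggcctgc
SDHD promoter, chr11:112086738-112086797, plus strand: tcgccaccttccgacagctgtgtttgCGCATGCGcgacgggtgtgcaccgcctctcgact
COX6A1 promoter, chr12:120437868-120437927, plus strand: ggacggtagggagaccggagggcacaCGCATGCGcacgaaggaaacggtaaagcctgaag

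The palindrome began 41 bases before one of the annotated starts of ATP5G2, 21 before that of ATP5C1, 109 before that of SDHD and 219 before that of COX6A1. The same letters thus stood before genes with log2 fold changes of 0.62, 0.16, 0.23 and -0.10. The median log2 fold change was 0.22 for the 14 members with the NRF1 letters and 0.19 for the 49 without them. The ETS letters CCGGAAG, on either strand, stood before 17 of the 63 members (26.98%) and before 2795 of all genes (10.2%), with medians of 0.22 for these 17 and 0.19 for the other 46. The ETS and NRF1 letters can share at most 1 end base, and 5 members held both. A match is a run of letters and no measure of binding.

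Position on the chromosomes was set beside the values because OV3/COX1KD RNA was higher along the long arm of chromosome 8. For the 309 tested genes of that arm the median log2 fold change was 0.26, and for the 151 of the short arm 0.0071. The 4 members on chromosome 8 are UQCRB, COX6C, CYC1 and NDUFB9. The median of the other tested genes within 2 Mb, under the same limit on level, was 0.36 for UQCRB, 0.20 for COX6C and CYC1 and 0.23 for NDUFB9. UQCRB, COX6C and CYC1 lay above these medians, and NDUFB9, an accessory subunit of complex I, stood at 401 ± 11.7 CPM in OV3/SCR and 409 ± 6.43 in OV3/COX1KD (SD, n = 3 each; log2 fold change 0.03, edgeR FDR = 0.43), with 23.9% of its exon bases shared with TATDN1 on the opposite strand. ATP5G2 on chromosome 12, with the second largest rise, had 45 neighbours with a median of -0.00. Without the chromosome 8 members, 56 of 75 nuclear members rose and the median was 0.21. Across 77 nuclear members with at least 5 neighbours the member's log2 fold change and that of its neighbours gave Pearson's r of 0.363 and Spearman's rho of 0.385, as a description across genes of the same 6 libraries.

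**Figure D3:**
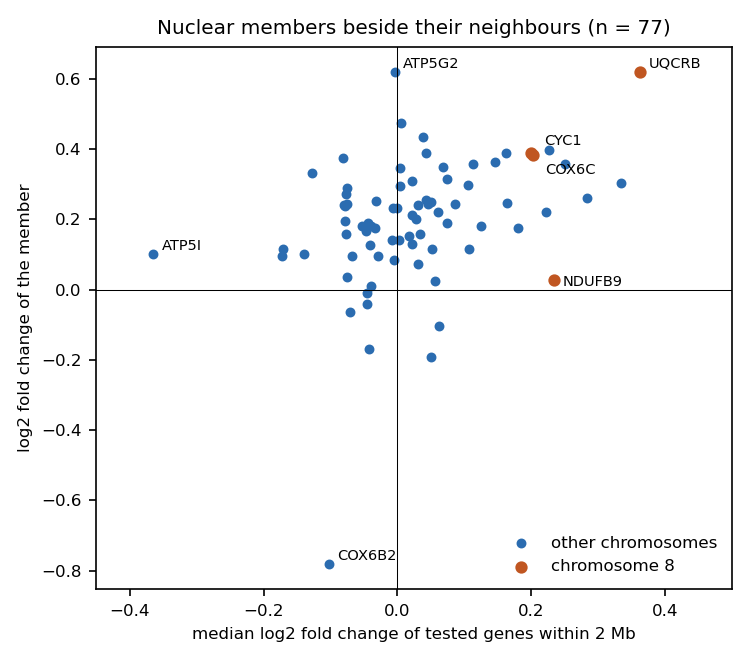
Log2 fold change of 77 nuclear members (vertical axis) against the median log2 fold change of the other tested genes within 2 Mb (horizontal axis). Neighbours had a mean log2 CPM of at least 1. Orange points are the 4 members on chromosome 8. UQCRB has the highest neighbour median, 0.36, while ATP5G2 reaches the same height with a neighbour median of -0.00.

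Genes around the respiratory chain were described in the same way, and each count is to be read against the 25.8% of all tested genes that rose and the 22.1% that fell (40.3% and 26.9% of the abundant ones). Of 47 tested assembly factors 21 rose and 4 fell, with a median log2 fold change of 0.17. The largest rises were in SDHAF4 (0.80, edgeR FDR = 9.4e-08), an assembly factor of the complex II flavoprotein, NDUFAF3 (0.79, edgeR FDR = 5.3e-09) and NUBPL (0.67, edgeR FDR = 6.6e-08), both complex I assembly factors, and the largest fall was in NDUFAF7 (-0.41, edgeR FDR = 3.3e-06), another complex I factor that was named after its value was seen. Of 9 further subunits and partners 4 rose and 0 fell (median 0.14), and COX7A2L, a supercomplex assembly factor, had the largest of these rises, 0.34. The 24 TCA cycle and pyruvate dehydrogenase genes gave 12 rises and 2 falls (median 0.19). No list was tested against other genes.

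In that list IDH2, the mitochondrial NADP-dependent isocitrate dehydrogenase, stood at 21.7, 20.5 and 23.0 CPM in OV3/SCR and at 52.1, 51.7 and 53.7 in OV3/COX1KD, a log2 fold change of 1.27 (SE 0.050, edgeR FDR = 4.2e-14). SUCLG2, a subunit of the GTP-forming succinyl-CoA ligase, rose by 1.00 on the log2 scale. PDHA1, the catalytic subunit of pyruvate dehydrogenase, stood at 54.6, 54.8 and 57.2 CPM against 33.0, 35.4 and 32.4 and fell (log2 fold change -0.73, SE 0.046, edgeR FDR = 5.3e-11). The changes of IDH2, SUCLG2 and PDHA1 were larger in size than that of any respiratory chain subunit that passed.

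Genes that copy, transcribe and process mitochondrial DNA gave 4 rises and 9 falls among 29 tested, with a median of -0.09, beside 22.1% of all tested and 26.9% of abundant genes that fell. The 29 include the row KIAA0391, listed for the gene PRORP, whose identifier does not carry that name in the annotation used. That row held 8 to 25 counts per library, did not pass (edgeR FDR = 0.12) and may not measure PRORP. POLRMT, the mitochondrial RNA polymerase, stood at 101, 102 and 102 CPM in OV3/SCR and at 84.3, 82.97 and 84.1 in OV3/COX1KD, without overlap (log2 fold change -0.28, SE 0.033, edgeR FDR = 4.1e-07). POLG, the mitochondrial DNA polymerase (-0.35), ELAC2, which trims tRNA ends (-0.30), and MTERF4, a factor of mitochondrial ribosome assembly (-0.36), fell. LRPPRC, which stabilizes mitochondrial mRNAs, rose by 0.23 on the log2 scale.

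Of 21 tested regulators of mitochondrial biogenesis 4 rose and 4 fell, with a median of 0.03, beside 25.8% and 22.1% of all tested genes. PPARGC1A, which encodes the coactivator PGC-1alpha, stood at 16.3, 15.7 and 16.1 CPM in OV3/SCR and at 6.11, 5.94 and 5.29 in OV3/COX1KD, a log2 fold change of -1.47 (SE 0.081, edgeR FDR = 7.0e-12). ATF5 (-0.29) and SIRT1 (-0.21) fell and PPARA (0.32) rose. Among 9 tested carriers and related genes of the inner membrane 4 rose and 2 fell (median 0.07). UCP2, an uncoupling protein, rose by 1.19 and SLC25A6, an ADP/ATP carrier, by 1.01 on the log2 scale, whereas SLC25A4, another ADP/ATP carrier, fell with a log2 fold change of -0.25, and SLC25A27 fell with one of -0.29.

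**Figure D4:**
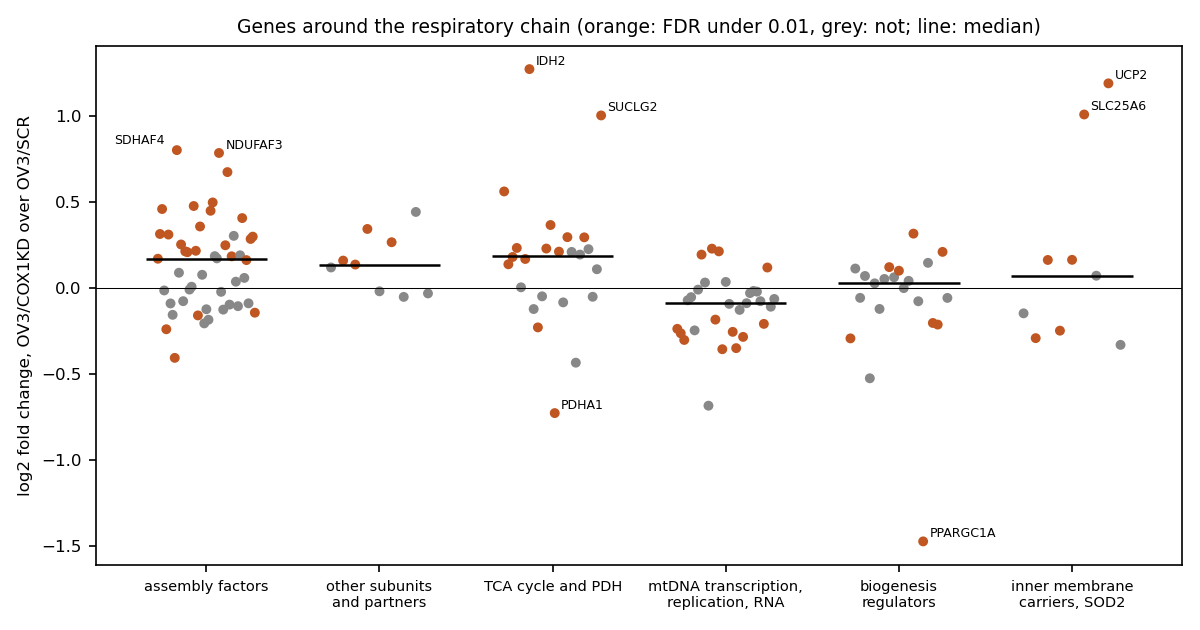
Log2 fold change (vertical axis, OV3/COX1KD over OV3/SCR) of the tested genes in 6 lists around the respiratory chain. Each point is a gene, orange where the edgeR FDR was under 0.01, and lines are list medians. Assembly factors and TCA cycle genes have medians of 0.17 and 0.19, and the genes of mitochondrial DNA transcription and replication one of -0.09.

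Nuclear pseudogene copies of members were scarce. Of 57 listed, 5 were tested, of which 1 rose and 2 fell, beside 25.8% and 22.1% of all tested genes. ATP5F1P3 had 2, 2 and 1 counts in OV3/SCR and 12, 18 and 17 in OV3/COX1KD. SDHAP1 and SDHAP3 fell, with log2 fold changes of -0.47 and -1.10, and the parent gene SDHA did not pass. How reads that match both a copy and its parent were counted is not given in the sources used here, so these counts are uncertain too.

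The libraries held 25291505 to 27391538 counts. PTGS1 itself had 713, 658 and 641 counts in OV3/SCR and 456, 486 and 501 in OV3/COX1KD (log2 fold change -0.45, edgeR FDR = 1.3e-06). Of 10 ovarian carcinoma markers 9 were tested (ESR1 was at or near 0). Of these 7 rose and 2 fell, beside 25.8% and 22.1% of all tested genes, with log2 fold changes from -0.76 to 1.36. The summed level, which does not stand for each marker, was 4828 to 4861 CPM in OV3/SCR and 6320 to 6499 in OV3/COX1KD. Fibroblast markers summed to 10.9 to 11.6 CPM against 6.71 to 7.42, leukocyte markers to 1.27 to 1.84 against 0.862 to 1.51, and endothelial markers to 2.45 to 3.22 against 2.87 to 3.56, and COL3A1 and LUM were at 0 in each OV3/SCR library while COL1A1 held most of the fibroblast sum.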

How the data were processed

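RNA-seq libraries of OV3/SCR and OV3/COX1KD cells (3 each, Illumina TruSeq, not strand-marking) were analysed. According to the labels' processing notes and the study's methods, the authors used TopHat2 2.0 for alignment to hg19 and deposited raw counts per gene from HTSeq. The gene annotation and strand setting are not given in the sources used here.

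The deposited counts went into edgeR 4.0.16 (R 4.3.3): filterByExpr, TMM, and glmQLFit and glmQLFTest with condition as the only term, with Benjamini-Hochberg adjustment over all 17309 kept genes. The common dispersion was 0.00103 (biological coefficient of variation 3.21%). The threshold was an FDR of 0.01, with a log2 fold change limit of 0.5 named where used. The standard error is the log2 fold change over the square root of F. DESeq2 1.42.0, other scalings and filters, a replicate block and leaving out each library were alternatives. The test was tested on simulated data. The floor of 3 counts covers counting error only, whereas the standard error comes from the fit and includes the spread between libraries. Coordinates, exon overlaps and coding lengths came from GENCODE 44 lifted to GRCh37 (33556 of 34811 genes matched), mitochondrial and pseudogene sequences from its transcripts, and promoters from RefSeq.

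Named genes are all mitochondrial members, those beyond the log2 limit, the 5 largest rises and falls among nuclear members that passed, isoform pairs, members on chromosome 8, the highest level per length in each complex, members at or under 3 counts, and up to 4 of the largest changes in each other list. Catalytic and core subunits were added after their values were seen. Members and lists were chosen with earlier results of these data known. Some genes that this rule names are not reported here.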

Additional observations from a re-analysis of the deposited data

How the results depend on the processing

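Under 7 alternatives of scaling, filter, test and blocking, and with each library left out in turn, the median log2 fold change kept its sign for mitochondrial and for nuclear members. Mitochondrial members that fell numbered 5 with DESeq2 against 10, and from 4 to 12 with a library left out. All members that fell numbered 5 with DESeq2 against 11, and from 4 to 12 with a library left out. Nuclear members that fell numbered 4 with total count scaling, 0 with no filter on low counts, 0 with DESeq2, and from 0 to 1 with a library left out, against 1. The nuclear median was 0.14 with total count scaling, 0.24 with no filter and 0.20 with at least 10 counts in every library, against 0.22. Total count scaling left 41 nuclear rises of 59, and 41 nuclear members rose in every setting. The median of all tested genes was 0.014 with no filter, against -0.0087. Without the chromosome 8 members, a choice made after seeing the data, 56 nuclear members rose. For single members, the outcome was unchanged in 592 of the comparisons without a left-out library, and a call was gained in 11 and lost in 33. With a library left out the outcome was unchanged in 499, and a call was gained in 4 and lost in 43. Unchanged outcomes include members called in neither fit.

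The labels number replicates 1 to 3 in each line and speak of replicate pairs, without saying that a number marks a pair. Deviations of same-numbered libraries from their line means correlated across genes at -0.0047, 0.048 and 0.028, and OV3/COX1KD replicate 1 correlated better with OV3/SCR replicate 3 (0.014) than with replicate 1. With the replicate block 59 nuclear members rose, 1 fell and 11 mitochondrial members fell, against 59, 1 and 10, MT-CO1 being the added call (edgeR FDR = 0.0057).

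At 3 libraries of 1 clone per line the data measure passages. Genes under the floor of 3 counts, reads shared between overlapping or copied genes, and the strand of MT-ND6 limit single values.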
